A study of Mus musculus with 5 samples.

Results

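The regions described here are the stretches of mouse autosomes from which a methyl-CpG binding domain captured the least DNA. Autosomes were divided into windows of 100 kb. Of these, 23366 held at least 300 input reads. Reads of the 600 mM MethylCap eluate, scaled to the library's total (RPM), were divided by the input RPM, and the lowest 5% of windows (1169 windows, ratio of at most 0.164) were taken. Of these, 31 were left out because their ratio of 5-hydroxymethylcytosine (5hmC) to 5-methylcytosine (5mC) antibody reads was in the highest 2% of windows (above 1.57) and 1 because it was in the lowest 2% (below 0.653). The remaining 1137 windows (113.7 Mb of 2336.6 Mb, or 4.87% of windows) are called MethylCap-poor windows. The windows were thus chosen by their 600 mM ratio to input, which is given as a description only. The 800 mM eluate and the ratio of each antibody library to input did not rank them.

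A set of 5 libraries was compared, 1 per group. Embryonic stem cells were grown without feeder cells in 10% serum with leukaemia inhibitory factor. Clones of the E14 line from the SIGTR gene-trap library, at passages 11 to 14, gave DNA for 4 enriched libraries. These were a 600 mM NaCl and an 800 mM NaCl eluate from 1 µg of DNA captured with 2 µg of His6-GST-MBD (MethylCap-seq), a pulldown with 2 µg of antibody to 5mC (MeDIP), and one with 2 µg of antibody to 5hmC (hMeDIP). Chromatin from TNG-A cells, an E14 line that carries an EGFP reporter in Nanog, served as input. It thus came from another line than the enriched DNA, and the labels do not say how many clones were pooled. With 1 library per group there is no replicate check and no test between conditions. Intervals are exact 95% intervals for counting error only, since PCR copies cannot be told from independent molecules in these reads. Reads on chromosomes 1 to 19 and X, the total for RPM, numbered 7507520 to 18676265 per library, and the median MethylCap-poor window held 56, 43, 142, 301 and 725 reads of the 600 mM eluate, the 800 mM eluate, MeDIP, hMeDIP and input. Positions are in mm9.

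DNA methylation in mammals lies mostly on cytosines of CpG dinucleotides, and embryonic stem cells oxidise part of it to 5hmC with the TET enzymes. The MBD fold binds methylated CpGs in double-stranded DNA and holds fragments with many of them more firmly, so that higher salt releases more densely methylated fragments. The antibodies bind the modified base itself in denatured DNA. All these libraries report signal per length of DNA and not per CpG. No genome of the files' build was used, so the CpG content and the genes of the windows were not analysed here.

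MethylCap-poor windows were low in the other 3 enriched libraries, but not to the same degree. Over all 1137 windows, 50002 reads of the 800 mM eluate stood against 846853 input reads, a ratio of RPM of 0.147 (interval 0.146 to 0.148). The ratio was 0.343 (0.342 to 0.345) with the 5mC antibody and 0.413 (0.411 to 0.414) with the 5hmC antibody. Both antibodies thus kept more reads here, relative to input, than either eluate did. In the windows above the lowest 5%, the same ratios were 1.08 for the 800 mM eluate, 1.06 for MeDIP and 1.06 for hMeDIP. The 600 mM eluate, which chose the windows, was at 0.134.

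The input is shared by all of these ratios, so each library was also compared with itself. The median number of reads in a MethylCap-poor window was 0.194 times that of all windows in the 800 mM eluate, 0.376 times in MeDIP and 0.471 times in hMeDIP. For input this value was 0.992, so MethylCap-poor windows were sequenced in the input about as deeply as other windows. The windows made up 4.53% of the input's reads, 0.666% of the 800 mM eluate's, 1.56% of MeDIP's and 1.87% of hMeDIP's. When windows were chosen with the 9339037 plus-strand input reads and measured against the 9337228 minus-strand reads, the ratios were 0.148 in the 800 mM eluate, 0.346 in MeDIP and 0.415 in hMeDIP.

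**Figure D1:**
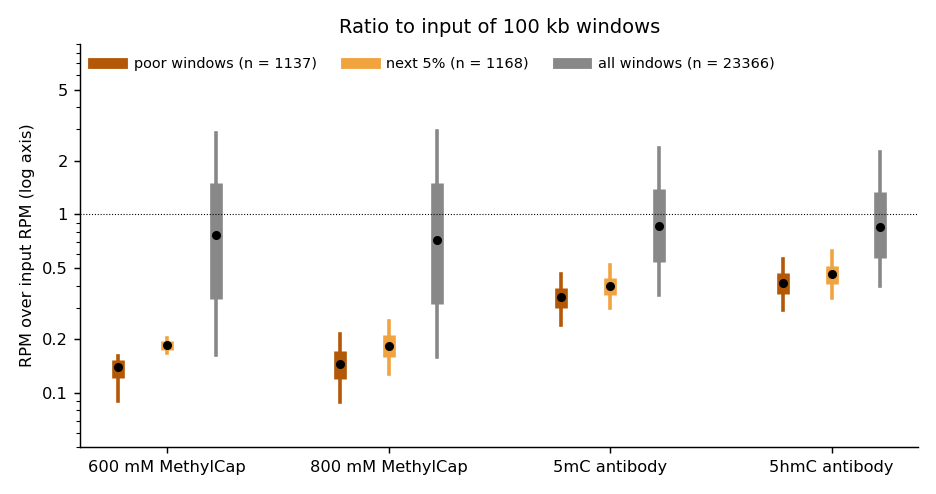
Ratio of RPM to input RPM (log axis) of 100 kb windows in the 4 enriched libraries, for the 1137 MethylCap-poor windows, the 1168 windows of the next 5% by 600 mM ratio and all 23366 windows. Dots are medians, thick bars the middle 50% and thin bars the 5th to 95th percentile of windows; the medians of MethylCap-poor windows were 0.139 and 0.145 in the eluates, 0.343 in MeDIP and 0.414 in hMeDIP.

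How far the label of domains poor in all signals held was read from windows at or below 0.5-fold of input, the fold used here to call a window low. All 1137 MethylCap-poor windows were low in the 800 mM eluate, against 39.2% of all windows (in the 600 mM eluate, used by the rule, all were low, against 36.9%). In MeDIP 1111 (97.7%) were low, against 21.0% of all windows, and in hMeDIP 972 (85.5%), against 16.2%. All 4 libraries were low together in 967 windows (85.0%), against 14.1% of all windows. The label thus held for most windows and not for the remaining 170. The next 5% of windows by 600 mM ratio had 1168 of 1168 low in the 800 mM eluate, 91.8% in MeDIP and 69.8% in hMeDIP, so the values changed gradually beyond the threshold.

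At the threshold, windows on both sides were alike. The 5 windows just inside had 600 mM ratios of 0.1642 to 0.1644 and MeDIP ratios of 0.286 to 0.509, and the 5 just outside had 600 mM ratios of 0.1644 to 0.1646 and MeDIP ratios of 0.332 to 0.427. With 59 to 103 reads of the 600 mM eluate in each, counting error spans the threshold: the interval of the window on chromosome 7 at 98000001–98100000 was 0.126 to 0.210. Ranking by the 800 mM eluate gave 1140 windows, of which 732 were the same (64.4% of the 1137).

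The balance of the antibodies was shifted toward 5hmC. Over MethylCap-poor windows, hMeDIP held 346579 and MeDIP 162571 reads, a ratio of RPM of 1.202 (1.195 to 1.209), whereas it was 0.998 over all windows. This ratio contains no input and no MethylCap reads, but the rule had removed its extremes. By window, the median was 1.21 in MethylCap-poor windows, with 5th and 95th percentiles of 0.952 and 1.48, against 1.01 in all windows. In 580 windows (51.0%) hMeDIP was at least 1.2 times MeDIP, against 20.7% of all windows, and in 102 (8.97%) it was below MeDIP, against 47.9%. Before the extremes were removed, 31 windows of the lowest 5% were in the highest 2% and 1 in the lowest 2%.

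The shift belonged to a gradient with MethylCap signal that was nearly flat in the middle of the range. The median antibody ratio was 1.21 in the lowest 5% of windows, 1.16 in the next 5%, 1.10 in the 10 to 20% class, 1.01 in the 30 to 40% class and 0.881 in the highest 10%. It was above 1 on each autosome with at least 20 MethylCap-poor windows, with medians from 1.13 on chromosome 16 to 1.26 on chromosome 5 over these 18 chromosomes. Along this gradient the total antibody signal changed too: the median MeDIP ratio to input went from 0.342 in the lowest class to 2.35 in the highest, and the hMeDIP ratio from 0.415 to 2.13. Over all windows hMeDIP had fewer enriched 1 kb bins than MeDIP, 19.99 against 25.8 per Mb, where an enriched bin is one at 3-fold or more of input. The libraries differed in depth, with 18519740 hMeDIP and 10442811 MeDIP reads, and the part of depth in these numbers was not tested. Whether unspecific reads that differ between the antibody libraries have a part in the antibody ratio was not tested, since none of the libraries is a mock pulldown.

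**Figure D2:**
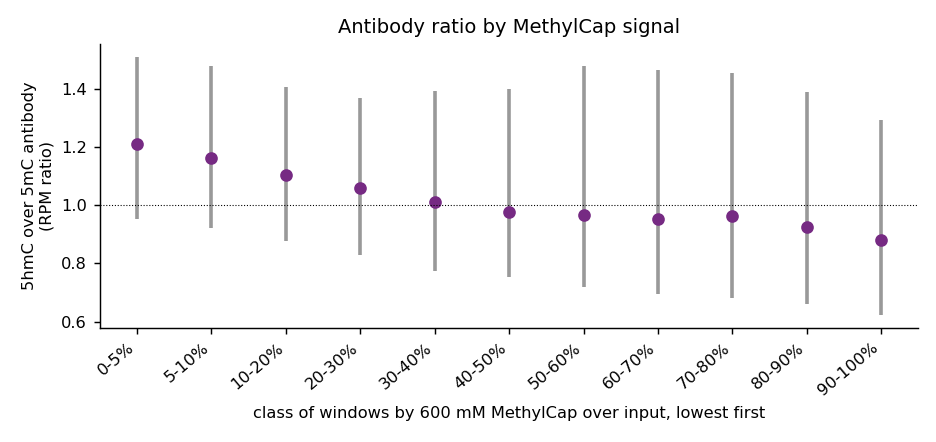
Ratio of 5hmC to 5mC antibody RPM in 100 kb windows (vertical axis), for 11 classes of windows ordered by 600 mM MethylCap ratio to input (horizontal axis). Dots are medians and bars the 5th to 95th percentile of windows; medians go from 1.21 in the lowest 5% to 0.881 in the highest 10%, and the ranges of neighbouring classes overlap widely. No window is left out of the classes.

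Single windows with an extreme antibody ratio had wide counting intervals. The highest, on chromosome 8 at 39100001–39200000, had 241 hMeDIP reads and 87 MeDIP reads, a ratio of 1.56 (1.22 to 2.02). The lowest, on chromosome 7 at 55100001–55200000, held 54 and 41 reads, a ratio of 0.743 with an interval that includes 1 (0.486 to 1.14). The next lowest, on chromosome 4 at 36400001–36500000, held 219 and 154 reads, a ratio of 0.802 (0.650 to 0.992). The 7 MethylCap-poor windows at or below 0.15-fold of input with both antibodies were left out of the spread, which can narrow it. This level was chosen after the values were seen. Across the other 1130 windows, the SD of the log antibody ratio corresponded to 12.9%, where counting error alone would give 10.4%. The rule had cut the ends of this ratio, which narrows its spread. For the ratios to input, the SD was 20.2% in MeDIP and 20.1% in hMeDIP, against counting errors of 9.37% and 6.97%. These ratios thus differed between windows by more than counting error. Input is their denominator, and within MethylCap-poor windows they had Spearman correlations with input reads of -0.273 in MeDIP and -0.267 in hMeDIP. The part of input in the spread was not tested. Across the 1137 windows, the number of MeDIP reads and that of hMeDIP reads had a Spearman correlation of 0.789, against 0.944 over all 23366 windows. Reads of the 600 mM eluate had one of 0.550 with MeDIP reads, against 0.971 over all windows. Choosing windows by the 600 mM ratio narrows the range over which these are computed. Windows share the depth of their libraries and are not independent replicates.

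The rule capped the 600 mM ratio of every MethylCap-poor window at 0.164, so this ratio had little room to differ between those with more and those with less antibody signal. Between the hMeDIP and the 600 mM ratio, the Spearman correlation was 0.930 over all windows and 0.285 within the capped range. In the 165 windows above 0.5-fold in hMeDIP, the median ratio was 0.146 at 600 mM, 0.158 at 800 mM, 0.429 in MeDIP and 0.537 in hMeDIP. In the other 972 it was 0.138, 0.143, 0.332 and 0.398. Input is the denominator of these ratios, and its median was 681 reads in the 165 windows and 737.5 in the 972. The median of 600 mM reads was 54 and 56. On chromosome 14 lay 5 of the 165 and 132 of the 972. The median antibody ratio was 1.299 in the former and 1.19 in the latter, but the former were split off by the numerator of that ratio. The most antibody signal was in the window on chromosome 14 at 9600001–9700000, with 580 hMeDIP reads (0.921-fold of input, 0.822 to 1.03) and 243 MeDIP reads (0.684-fold, 0.588 to 0.795), but 47 and 56 reads of the eluates (0.132-fold and 0.219-fold).

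A narrow peak carried part of that window's signal. Its bin at 9624001–9625000 held 149 of the 580 hMeDIP reads and 66 of the 243 MeDIP reads, with 5 input reads, and 2 and 1 reads of the 600 mM and 800 mM eluates. The raw ratio to input was 30.1 in hMeDIP (12.6 to 93.9) and 23.6 in MeDIP (9.62 to 75.1). Such peaks were rare in MethylCap-poor windows. Counting a 1 kb bin as enriched at 3-fold or more of (RPM + 0.5)/(input RPM + 0.5), 166 bins were enriched in hMeDIP (1.46 per Mb, against 19.99 per Mb in all windows), 91 in MeDIP (0.800 against 25.8), 61 in the 800 mM eluate (0.537 against 44.2) and 16 in the 600 mM eluate (0.141 against 34.5). In the next 5% of windows the numbers per Mb were 1.72 in hMeDIP, 1.34 in the 800 mM eluate, 0.865 in MeDIP and 0.411 in the 600 mM eluate, so hMeDIP had the most there too. Low summed signal makes enriched bins rare by construction in the 600 mM eluate, which chose the windows. The 800 mM eluate, MeDIP and hMeDIP were low in these windows too, at summed ratios of 0.147, 0.343 and 0.413. Their few enriched bins are thus not a result separate from these sums.

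Enriched bins mostly had few input reads. The hMeDIP bins had medians of 32 hMeDIP and 3 input reads, and the MeDIP bins 19 MeDIP and 3 input reads. Where 5 input reads and 20 reads of the library itself were required, 31 enriched bins were left in hMeDIP and 27 in MeDIP. By these medians, the requirement of 20 reads bears more on MeDIP, so the numbers left are not a like comparison. The same requirement left 4 at 600 mM and 1 at 800 mM. Among the enriched libraries hMeDIP also had the most reads (18519740, against 10442811 in MeDIP) and the highest level in these windows, and the part of these in the count was not tested. The 166 hMeDIP bins lay in 151 windows (13.3% of MethylCap-poor windows), and 138 of these held a single one. Of the 166 bins, 34 were also enriched in MeDIP, 0 in either eluate, and 51 held no MethylCap read. Among all 113700 bins of MethylCap-poor windows, 91 were enriched in MeDIP, 61 at 800 mM and 16 at 600 mM. No 600 mM read was in 69.8% of all these bins, and no 800 mM read in 73.9%. Summed over the 166 bins, the ratio to input was 1.14 at 600 mM and 0.980 at 800 mM. Over all MethylCap-poor windows it was 0.134 and 0.147, so the 166 bins did not lack MethylCap signal beside their windows. The 166 bins have few input reads, with a median of 3, so their ratios are uncertain, and 31 of them had at least 5 input and 20 hMeDIP reads. Among the latter, 69 hMeDIP reads, 12 MeDIP reads, 5 input reads and no MethylCap read fell in chromosome 9 at 10494001–10495000. Both antibodies were high on chromosome 12 at 61533001–61534000, with 75 hMeDIP reads, 60 MeDIP reads and 9 input reads beside 11 and 12 reads of the eluates. A bin on chromosome 6 at 20553001–20554000 was high with the 5mC antibody, with 43 reads, and held 8 hMeDIP and 9 input reads.

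The 800 mM eluate had 1 bin with at least 5 input reads and 20 of its own that reached 3-fold. On chromosome 8 at 53281001–53282000 it held 61 reads, with none of the 600 mM eluate, MeDIP or hMeDIP and 5 of input. The raw ratio to input was 30.3 (12.3 to 96.8), and with the pseudocount it was 11.2. The window around it had the highest 800 mM ratio of all MethylCap-poor windows, 0.390 (0.313 to 0.481), and these 61 reads were part of its 102. Bins without any read were the rule in the eluates: 69.8% of the 113700 bins held no 600 mM read and 73.9% no 800 mM read, against 39.9% in MeDIP, 23.9% in hMeDIP and 6.19% in input. Over all windows these shares were 32.7%, 42.3%, 19.7%, 11.2% and 4.41%.

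MethylCap-poor windows were spread over all autosomes but unevenly. Chromosome 14 held 137 of the 1137, which was 12.2% of its eligible windows, followed by chromosome 4 with 7.29%, chromosome 3 with 6.56% and chromosome 1 with 5.86%. Chromosome 19 held 2 windows (0.348%), chromosome 9 had 1.66%, chromosome 18 had 2.28% and chromosome 11 had 2.36%. Of 244 stretches of 10 Mb with at least 50 eligible windows, 89 held none, while the 10 richest stretches held 263 (23.1%). The 3 richest were chromosome 14 at 90000001–100000000 with 45 MethylCap-poor windows of 100, chromosome 3 at 70000001–80000000 with 31 and chromosome 14 at 80000001–90000000 with 30. With each chromosome cut into 5 equal parts, the share was 3.81% in the centromere-proximal part, 5.60%, 6.14% and 5.71% in the next 3, and 3.06% in the distal part. In the last 3 Mb it was 6.32% (36 of 570 windows), against 1.78% in the first 3 Mb. These shares pool all autosomes, and single chromosome ends were not compared. The distal share includes 6 adjacent windows on chromosome 17 at 93700001–94300000.

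**Figure D3:**
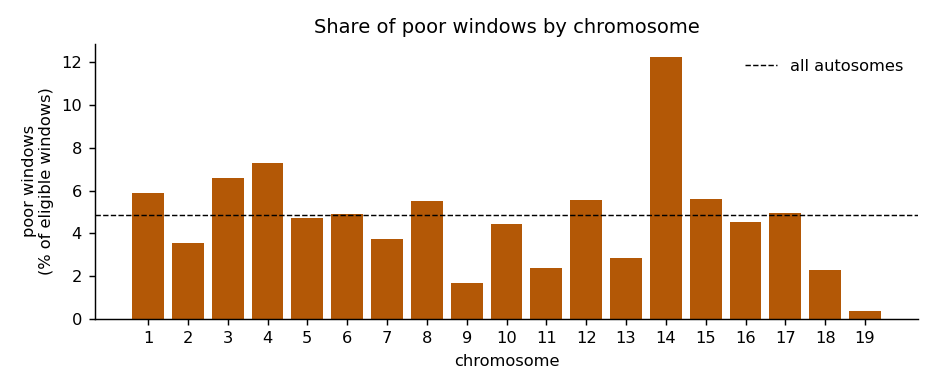
Share of eligible 100 kb windows that were MethylCap-poor (vertical axis, percent) on each autosome (horizontal axis); the dashed line is the share over all autosomes, 4.87%. Chromosome 14 stands at 12.2% and chromosome 19 at 0.348%.

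Chromosome X was outside the rule, and many of its windows met the autosomal threshold. Of 1415 windows with at least 300 input reads, 530 (37.5%) had a 600 mM ratio at or below 0.164. Median ratios over X were 0.2003 in the 600 mM eluate, 0.347 in MeDIP and 0.387 in hMeDIP. The median window of X held 538 input reads, and the copy number of X in the lines was not measured.

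Adjacent MethylCap-poor windows were joined into 752 domains. A single window made up 523 domains (69.5%), 146 domains were 200 kb long, and 83 were 300 kb or longer, with a maximum of 700 kb. The mean length was 151.2 kb. The longer domains were slightly poorer: the median MeDIP ratio was 0.356 in single windows, 0.347 in domains of 200 kb and 0.324 in longer ones, and the hMeDIP ratio was 0.429, 0.413 and 0.379. The antibody ratio was 1.211, 1.208 and 1.198, so domain length made little difference to it.

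A total of 3 domains were 700 kb long, and each was low in all 4 libraries. The first, on chromosome 8 at 38600001–39300000, held 308, 254, 794 and 1871 reads of the 600 mM eluate, the 800 mM eluate, MeDIP and hMeDIP against 4960 of input, with ratios of 0.111, 0.127, 0.286 and 0.380. On chromosome 14 at 109500001–110200000 the ratios were 0.126, 0.120, 0.259 and 0.305, and on chromosome 12 at 44000001–44700000 they were 0.136, 0.142, 0.323 and 0.413. The antibody ratio was 1.33 (1.22 to 1.45) in the first, 1.18 (1.08 to 1.28) in the second and 1.28 (1.19 to 1.38) in the third, and these intervals overlap. Within the domain on chromosome 8, single windows ranged from 1.02 to 1.56.

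Of the 8 domains of 600 kb or more, 4 were on chromosome 14. Those of 600 kb were on chromosome 14 at 91500001–92100000, 93600001–94200000 and 96700001–97300000, on chromosome 17 at 93700001–94300000 and on chromosome 6 at 63200001–63800000. Over the 8, the ratio was 0.120 to 0.167 in the 800 mM eluate, 0.259 to 0.351 in MeDIP and 0.304 to 0.419 in hMeDIP, and the antibody ratio was 1.15 to 1.33. A further 13 domains were 500 kb long, 1 of them on chromosome 14, with ratios of 0.280 to 0.393 in MeDIP and 0.303 to 0.447 in hMeDIP and an antibody ratio of 1.07 to 1.32. The naming rule took the 2 of these with the lowest 600 mM ratio. The one on chromosome 1 at 50300001–50800000 had an hMeDIP ratio of 0.425 (0.3999 to 0.451) and an antibody ratio of 1.32 (1.21 to 1.45). The one on chromosome 14 at 111400001–111900000 had an antibody ratio of 1.07 with an interval of 0.979 to 1.17, which includes 1.

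MethylCap-poor windows lay close together. Of them, 1060 (93.2%) had another within 1 Mb, against 6609 of all 23366 eligible windows (28.3%). The 1276 eligible windows beside a MethylCap-poor window had a median 600 mM ratio of 0.225, and 75.9% of them were in the lowest 20% of windows. In 214 places 1 window separated 2 MethylCap-poor windows. The 211 eligible ones of these had median ratios of 0.20005 in the 600 mM eluate, 0.385 in MeDIP and 0.433 in hMeDIP. Bridging such gaps left 538 domains, the longest of 2600 kb on chromosome 14 at 109500001–112100000, in which 20 windows (76.9% of the length) were MethylCap-poor. The counting interval of a single window near the threshold, 0.126 to 0.210 above, includes the median 600 mM ratio of these gaps, and with 50 kb windows there were 1605 domains, so their number depends on the size of the window.

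The profile across domain edges showed the same. Over the 83 domains of 300 kb or longer, the 600 mM ratio was 0.219 at 95 kb outside the edge and 0.134 at 95 kb inside, and the 800 mM ratio was 0.209 and 0.154. At these distances MeDIP was at 0.382 (0.366 to 0.398) and 0.338 (0.323 to 0.353), and hMeDIP at 0.428 (0.415 to 0.443) and 0.391 (0.378 to 0.404). The difference in hMeDIP varied with distance. At 85 kb it was nearly absent, with 0.413 outside and 0.410 inside. At 15 kb hMeDIP was higher inside, at 0.426 against 0.412, and at the other distances up to 95 kb it was lower inside. The edge was set by the 600 mM eluate, and the differences at 95 kb in the other libraries were smaller in proportion. One Mb outside, the median window still had ratios of 0.219 in the 600 mM eluate, 0.419 in MeDIP and 0.468 in hMeDIP, and 26.4% of those windows were in the lowest 5%.

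**Figure D4:**
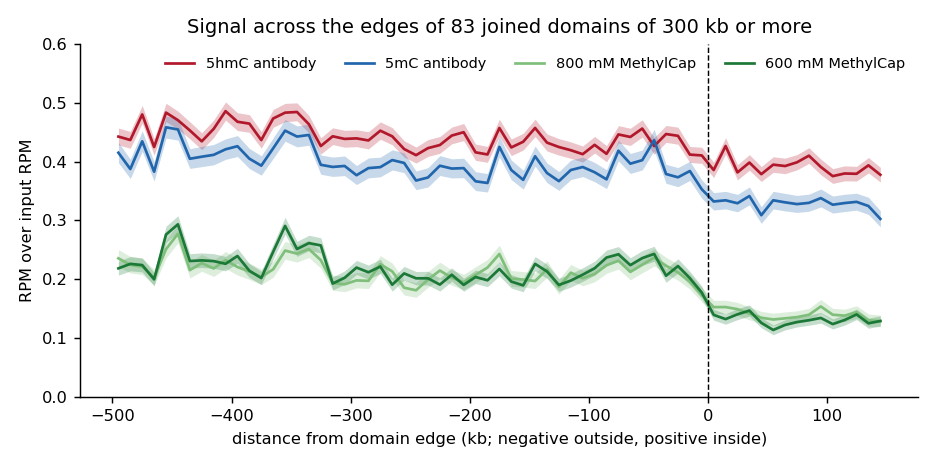
Ratio of RPM to input RPM in steps of 10 kb (vertical axis) against distance from the edge of 83 joined domains of 300 kb or more (horizontal axis, kb, positive inside); both edges of each domain are summed and bands are 95% intervals for counting error. At 95 kb on either side the 600 mM eluate was at 0.219 outside and 0.134 inside, and MeDIP at 0.382 and 0.338.

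The domains on the distal part of chromosome 14 went together with a dense input. From 90 Mb on, the median window of this chromosome held 933 input reads, 1.28 times the median of all eligible windows. All 352 windows there were eligible. Before 80 Mb the median was 667 reads over all 800 windows, of which 667 were eligible, so these medians are not a like comparison. The 97 MethylCap-poor windows beyond 90 Mb had a median of 922 input reads, and the 40 before it 703. Their enriched libraries held similar numbers of reads, with medians of 67 and 55.5 in the 600 mM eluate, 148 and 148.5 in MeDIP and 306 and 298 in hMeDIP. The ratios to input were accordingly lower beyond 90 Mb, at 0.287 against 0.349 in MeDIP and 0.334 against 0.424 in hMeDIP. The antibody ratio, which contains no input, was 1.197 and 1.208. A higher copy number of this part in the TNG-A line and less modification in the clones cannot be told apart. Without chromosome 14, the 1000 other windows had summed ratios of 0.149 in the 800 mM eluate, 0.350 in MeDIP and 0.422 in hMeDIP.

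The lowest values of all came from 1 stretch of chromosome 4. Of the 10 MethylCap-poor windows with the lowest 600 mM ratio, 8 lay at 111900001–113600000. The lowest, at 111900001–112000000, held 424 input reads but 0, 1, 2 and 4 reads of the 600 mM eluate, the 800 mM eluate, MeDIP and hMeDIP. Its ratio was 0.0084 in MeDIP (0.0010 to 0.0307) and 0.0095 in hMeDIP (0.0026 to 0.0245), and the absence of 600 mM reads allows a ratio of up to 0.0156. These antibody ratios are far below those of other MethylCap-poor windows, of which the lowest 5% had up to 0.245 in MeDIP and 0.297 in hMeDIP. At 112800001–112900000 there were 5, 2, 7 and 18 reads against 315 of input, and at 112500001–112600000 there were 4, 4, 14 and 20 against 347.

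Both antibodies were at or below 0.15-fold of input in 10 of the 23366 windows (0.0428%), and 8 of these lay on chromosome 4 between 111700001 and 113200000. Of the 10, 7 were MethylCap-poor by the rule, 6 of them on chromosome 4, and 3 had an antibody ratio in a tail, which with so few reads is poorly measured. The others were on chromosome 17 at 40100001–40200000, with 7, 2, 4 and 8 reads against 324 of input, and on chromosome 13 at 61900001–62000000, with 19, 6, 6 and 18 against 375. Over the 18 windows of chromosome 4 at 111800001–113600000, eligible or not, the ratio was 0.0522 at 600 mM, 0.0664 at 800 mM, 0.121 in MeDIP (0.109 to 0.133) and 0.142 in hMeDIP (0.133 to 0.152). The stretch was not uniform: the window at 112300001–112400000 held 56, 49, 109 and 281 reads against 625 of input, which is the level of an ordinary MethylCap-poor window, and the next window also held more reads than most of the stretch.

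Input reads were also fewer over this stretch. Of its 18 windows, 13 were eligible, and the values below cover all 18 beside eligible windows only, which hold at least 300 input reads. Its median window held 341.5 input reads, 0.467 times that of all eligible windows. No input read was in 12.9% of its bins, against 4.41% of bins in all eligible windows. Of its input reads, 13.5% had a 1 in the fourth column of the file, against 8.45%. The sources used here do not explain this column. On the centromere-proximal side, at 109600001–111600000, MeDIP was at 0.650 and hMeDIP at 0.745, and on the distal side, at 113700001–115700000, at 1.11 and 1.16. The reads of the enriched libraries, which contain no input, were low in themselves: the median window of the stretch held 0.0243 of the median over all windows at 600 mM, 0.0315 at 800 mM, 0.0397 in MeDIP and 0.0352 in hMeDIP. A loss of this DNA in the clones and an absence of modified cytosine cannot be told apart. Without the 7 windows, the summed ratios over MethylCap-poor windows were 0.147 in the 800 mM eluate, 0.344 in MeDIP and 0.414 in hMeDIP.

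**Figure D5:**
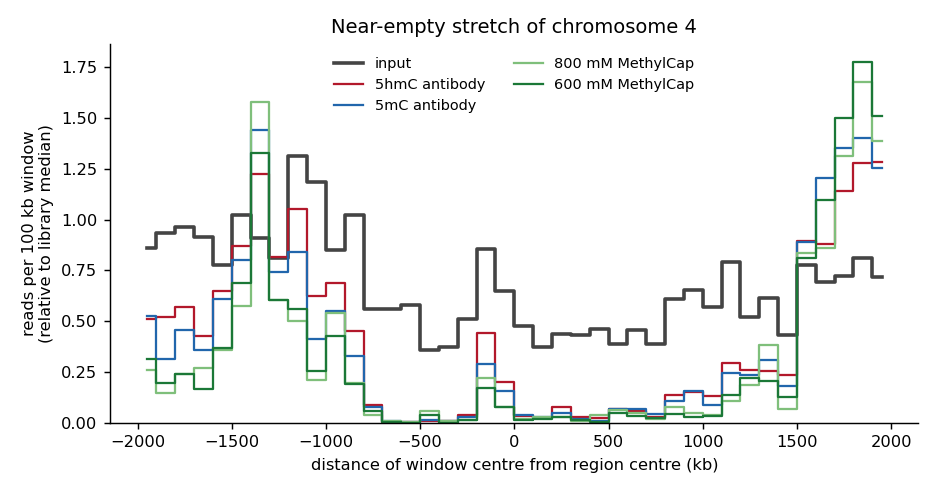
Reads per 100 kb window relative to the median window of each library (vertical axis) against distance of the window's centre from the middle of the near-empty stretch of chromosome 4 (horizontal axis, kb), for input and the 4 enriched libraries. The enriched libraries lie near 0 over most of the stretch while the input lies between 0.357 and 0.855 of its median, and 2 neighbouring windows near the middle rise in all libraries.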

How the data were processed

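Each line of the deposited files is a mapped read of 35 bp with position, strand and a read count, which was 1 throughout. The submitters' processing notes name BWA 0.5.8 and mm9; the sources used here do not say how the authors filtered reads. Column 4 of the deposited files, another value of 0 or 1, was used only to leave reads out in an alternative. Read midpoints on chromosomes 1 to 19 and X were counted in bins of 1 kb and summed to 100 kb windows with Python 3.11.15, numpy 2.4.6, pandas 2.3.3 and scipy 1.17.1. Ratios of RPM carry no pseudocount, except those used to call or rank 1 kb bins (0.5 RPM). Intervals are Clopper-Pearson intervals on the conditional binomial; where a library had 0 reads, the upper end is the exact bound. No test was run, because each group is 1 library. The code for the choice and the intervals was run on simulated windows. In these the low windows were set far below all others, so the run does not test the choice near the threshold.

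The windows, the rule and the lists were chosen with earlier results of these data known. Windows and bins named by a set rule were the 10 longest domains, the 10 lowest 600 mM ratios, the 5 on each side of the threshold, the 5 extremes of the antibody and MeDIP ratios, and the 10 top bins per antibody; a subset is printed. The 800 mM and hMeDIP extremes, the 10 Mb stretches, the 0.15-fold level, chromosome 14 beyond 90 Mb and the chromosome 4 stretch were chosen after their values were seen. Genes were not named and no sequence was read, since the gene tables at hand are of another build.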

Additional observations from a re-analysis of the deposited data

How the results depend on the processing

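Each alternative changed 1 choice, and no ratio crossed 1 in any of them. With 50 kb windows there were 1605 domains, with summed ratios of 0.134 in the 800 mM eluate, 0.337 in MeDIP and 0.408 in hMeDIP and an antibody ratio of 1.21. The lowest 2% of windows covered 45.1 Mb in 351 domains (0.130, 0.316, 0.388 and 1.23), and the lowest 10% covered 228.2 Mb (0.166, 0.371, 0.437 and 1.18); these follow from the share taken. With the antibody tails kept, MeDIP was at 0.341 and the antibody ratio at 1.21. Without reads marked 1 in column 4 the ratios were 0.142, 0.348 and 0.417. Ranked by the 800 mM eluate they were 0.130, 0.350 and 0.420. With separate input reads MeDIP was at 0.346 and hMeDIP at 0.415. With the median window ratio of each library set to 1, they were 0.205, 0.398 and 0.485, with an antibody ratio of 1.19; these were the largest shifts of the 3 ratios to input. Chosen after seeing the data, leaving out chromosome 14 beyond 90 Mb gave 0.149, 0.350 and 0.422, and leaving out all of chromosome 14 gave 0.149, 0.350 and 0.422. The cause of these shifts was not tested. The other 41 of 77 values, among them all 6 with shifted windows, with at least 500 input reads and without the near-empty windows, stayed within the counting interval, or within 1.5 times for lengths and numbers of domains. No paired analysis was possible because each group has 1 library. With 59 to 103 reads of the 600 mM eluate in the 10 windows nearest the threshold, counting error spans the threshold.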
